A study of Sus scrofa with 20 samples.

Results

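Longissimus muscle of fetal pigs at 91 dpc (days post coitum) was compared with that of piglets at 2 dpn (days postnatal), in Landrace (LR), a lean breed, and Lantang (LT), an obese indigenous Chinese breed. These were the 4 libraries labelled 91 dpc or 2 dpn, of 20 libraries over 10 stages, and breed served as the pairing block. Each library was made from RNA pooled in equal amounts from 3 purebred males, fetuses before birth and boars after it, so that LR and LT were the only replicates of a stage. The spread between single animals cannot be seen. A p-value from a test on all 4 libraries measures only the spread between these pools. One from the 2 libraries of a breed measures counting error alone. Fewer cells of a type and less RNA per cell cannot be told apart in such muscle pools.

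Skeletal muscle of the pig forms its fibres before birth and grows after birth mainly by enlarging them. Around birth the muscle is known to exchange fetal forms of its contractile proteins for adult ones. Many contractile proteins come from families of closely related genes, of which some members are used in the fetus and others in the adult.

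Transcripts were counted as DGE (digital gene expression) tags, each made of CATG, the site cut by NlaIII, and the next 17 bases toward the 3′ end of the cDNA. The level of a tag is its TPM, the number of its copies in 1000000 clean tags sequenced. The tags were not matched to genes or placed on a genome here, so that they are named by letters below, and the labelled tissue was not checked against marker genes. The tags R1 to R10 were the 10 most abundant ones that the paired edgeR test called higher at 2 dpn, and F1 to F10 the 10 most abundant ones called lower. They are shown because they hold the highest levels among the called tags, with the NlaIII site in capitals.
R1: CATGcgggagtgtgagcaagc
R2: CATGaagagcgccaggatgaa
R3: CATGttggtatgtgtgaaagc
R4: CATGtcccaggaagcccccat
R5: CATGtggaatgagcgcctcgg
R6: CATGgagatcctggagaagct
R7: CATGtcagagccttcccgtag
R8: CATGgaaggcctgcagtgaca
R9: CATGgactatttctatcttat
R10: CATGtaaattttgaaggcata
F1: CATGatgcattttggaggcta
F2: CATGatcttctacgcctgcct
F3: CATGtgacagaaaagcaaatg
F4: CATGataacaaaggtcaaaat
F5: CATGcaaggagttacttctct
F6: CATGttgcccaaatgaaattt
F7: CATGgtctgtggtctccgcta
F8: CATGctggatctccaccccac
F9: CATGtcggacgtggaggagac
F10: CATGtctgggtgaagcagacc

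The libraries held 4211993 (LR) and 5322022 (LT) total clean tags at 91 dpc, and 3116426 (LR) and 4415414 (LT) at 2 dpn. Of 432188 distinct tags, 64124 were found in all 4 libraries, and these carried 81.2 to 91.9% of the counts of a library. In LR at 2 dpn, 70.3% of the distinct tags had 2 to 4 copies, against 54.1 to 56.5% in the other 3 libraries. For this reason results are also given for the 38253 tags with 10 or more copies in both libraries of a side. The removal of tags seen once left 2 as the smallest count, and 3 counts, taken as the floor of detection, stood for 0.564 to 0.963 TPM. Over the 38253 tags, Pearson's r of log2(TPM + 1) was 0.71 between LR and LT at 91 dpc and 0.82 between them at 2 dpn. Across birth it was 0.62 within LR and 0.67 within LT. Over all 432188 tags the order was another one, with 0.74 between the breeds at 91 dpc, 0.75 at 2 dpn, and 0.70 (LR) and 0.77 (LT) across birth, the minimum asking for copies in both breeds of a side. These values describe tags that share a library and are not a test. Among the libraries of stages not compared, those of LR at 120 and 180 dpn stood apart. All tested tags had median levels of 0.583 and 0.553 TPM in them, against 2.32 to 3.07 TPM in the other 6 libraries of 28 to 180 dpn, and values that rest on these 2 are given with and without them, a choice made after seeing the data.

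The 10 abundant tags called higher lay between 0.712 and 43.0 TPM at 91 dpc and between 97.9 and 1067 TPM at 2 dpn. For R1 the level was 13.3 (LR) and 11.5 TPM (LT) at 91 dpc, and 444 (LR) and 1067 TPM (LT) at 2 dpn. Both 2 dpn libraries stood far above both 91 dpc libraries, and the log2 ratio of 2 dpn over 91 dpc was 6.07 (SE 1.12, edgeR adjusted p = 0.00279). R3 measured 4.99 and 5.26 TPM before birth and 736 and 653 TPM after it, in LR and LT respectively. Here the breeds were close to each other on each side, with a log2 ratio of 7.34 (SE 1.18, adjusted p = 0.000495). The steepest rise among the 10 was that of R10, from 0.712 (LR) and 1.5 TPM (LT) to 222 and 402 TPM. Its 91 dpc values rested on 3 and 8 counts, and its log2 ratio was 8.38 (SE 1.29, adjusted p = 0.000340). R9, with 1.19 and 2.63 TPM at 91 dpc and 214 and 411 TPM at 2 dpn, followed with a log2 ratio of 7.63. R8 was the tag on which the breeds differed most, 9.97 against 97.9 TPM in LR and 3.76 against 670 TPM in LT. It was 9.81-fold higher at 2 dpn in LR and 178-fold higher in LT, and this difference between the breeds was not tested. The other 5 tags, R2, R4, R5, R6 and R7, had log2 ratios of 4.38 to 6.63.

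Levels of the 10 abundant tags called lower fell to between 0 and 13.6 TPM at 2 dpn. The most abundant, F1, was listed at 277 (LR) and 262 TPM (LT) at 91 dpc and at 8.34 and 13.6 TPM at 2 dpn. The breeds were close on both sides of birth, and the log2 ratio was -4.38 (SE 1.07, adjusted p = 0.0418). For F2 the levels were 285 and 222 TPM before birth and 9.95 and 6.57 TPM after it, again without overlap (log2 ratio -4.69, SE 1.08, adjusted p = 0.0267). F5 dropped from 59.1 (LR) and 83.1 TPM (LT) to 1.28 and 1.36 TPM. That tag was 46.1-fold lower in LR and 61.1-fold lower in LT (adjusted p = 0.0143). F10 was counted 165 (LR) and 270 times (LT) at 91 dpc and 0 times in both libraries of 2 dpn. Against the floor of 3 counts per library it was at least 40.7-fold lower in LR and at least 74.7-fold lower in LT. F7 was likewise at 0 counts in LR at 2 dpn, and 4 copies were left in LT, from 348 and 240 at 91 dpc. The fitted log2 ratios of the other 5 tags, F3, F4, F6, F8 and F9, ran from -4.56 to -4.93.

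**Figure D1:**
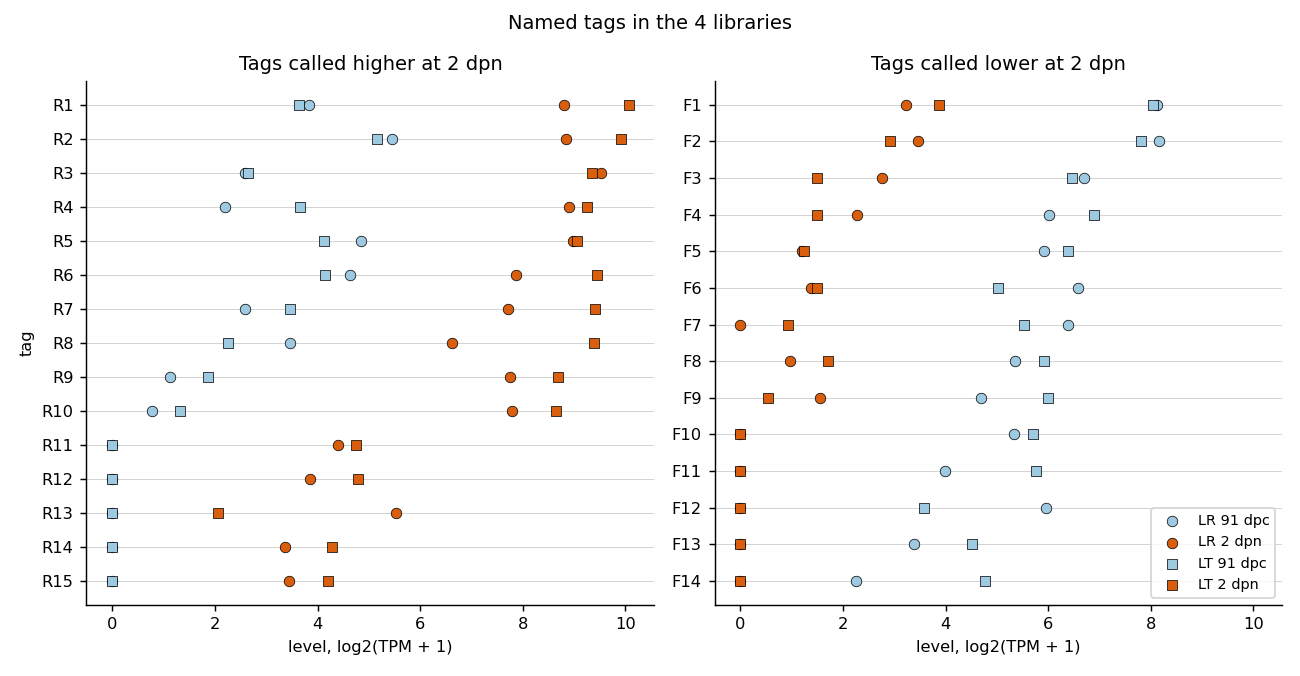
Levels of the named tags, as log2(TPM + 1) on the horizontal axis, with 1 line per tag and 1 point per library (circles LR, squares LT, blue 91 dpc, orange 2 dpn). In every called tag shown, both 2 dpn libraries lie on the same side of both 91 dpc libraries, and R11 to R15 have 0 counts in both 91 dpc libraries.

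The tags with the largest fitted change among called tags of 10 or more copies in both libraries of the higher side were, besides F10, all absent from the lower side. They are shown because each had 0 copies in both libraries of the lower side.
R11: CATGtactccgtgcagcgaaa
R12: CATGctgtgctcaagcccaat
R13: CATGtcgggtaaaaaatttgt
R14: CATGaaccgtatttctacccg
R15: CATGaggtatttcttttaaaa
F11: CATGagtgcaagctcagatgc
F12: CATGggcccatatccctccct
F13: CATGcctcccaagaagcctga
F14: CATGtgtgttacctgctattt
R12 had 0 copies in both 91 dpc libraries and 42 (LR) and 117 (LT) at 2 dpn. Against the floor of 3 counts it was at least 18.9-fold higher in LR and at least 47.0-fold higher in LT. R14 was counted 29 and 82 times at 2 dpn and was also at 0 in all 8 libraries of 35 to 77 dpc. R15 had 31 and 77 copies. R12 and R15 reached at most 3.38 and 2.03 TPM at 35 to 77 dpc, so that they were not absent from every prenatal library. The remaining 2 of the 5 lay within 1 base of a more abundant tag. R11, with 63 and 115 copies at 2 dpn, differed by C10T, counted from 1 at the C of CATG, from a tag at 295 (LR) and 116 TPM (LT) at 91 dpc. R11 itself had its highest level of all 20 libraries at 63 dpc in LR, at 121 TPM. With tags 1 base apart merged, the level went from 304 to 44.6 TPM in LR and from 118 to 152 TPM in LT, and the fitted log2 ratio was -0.91, that is reversed, and no longer passed the test. R13 had 140 copies in LR but 14 in LT, and its more abundant neighbour (G9T) also rose, from 0 and 2.25 TPM to 61.0 and 80.2 TPM (adjusted p = 0.00403). Among the tags that fell, F11 had 63 (LR) and 284 copies (LT) at 91 dpc and F12 had 256 and 58, so that the breeds were ordered differently for these 2. F13 was counted 40 and 117 times and F14 16 and 140 times. F11 was at 0 in all 8 libraries of 28 to 180 dpn, whereas F12, F13 and F14 reached at most 1.70 TPM there.

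The paired edgeR test, with breed as a block, called 123 of 45180 tags (0.272%) at an adjusted p below 0.05. Of these, 71 were higher and 52 lower at 2 dpn, and in all 123 the LR and LT ratios had the same sign. Over all 45180 tags the sign was the same in 53.2%. In both breeds, 70 of the 71 and 47 of the 52 also passed the 2-library test, which compares the libraries of 1 breed. Of the tags found in both breeds, 3.18% were called alike by that test. These counts and the sums that follow come from the libraries that chose the 123, so that they describe these tags and test nothing. Summed, the 71 tags stood at 177 (LR) and 157 TPM (LT) at 91 dpc and at 5484 and 9141 TPM at 2 dpn. The 52 tags stood at 1717 and 1817 TPM at 91 dpc and at 41.1 and 36.0 TPM at 2 dpn. No count had been found in either 91 dpc library for 27 of the 71, and none in either 2 dpn library for 30 of the 52. The fit left 1 residual degree of freedom, and without the breed block edgeR called 0 tags (4074 at an unadjusted p below 0.05, against 3595 with the block). With 3 libraries the fit was of stage alone, so that it is set against the 0 calls of the unblocked fit and not against the 123. Without the LR or the LT library of 91 dpc, 0 tags were called (4952 and 3367 at an unadjusted p below 0.05), and without the LR or the LT library of 2 dpn, 283 and 349. DESeq2 called 491 of 11895 tags with an adjusted p. Taking library totals for the scaling, and not TMM, moved the median log2 ratio of all tested tags from -0.03 to -0.37 and the split to 59 higher and 94 lower.

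Among the 38253 tags with 10 or more copies in both libraries of a side, 635 (1.66%) were called, 276 higher and 359 lower at 2 dpn. The minimum had kept 14454 tags through the 91 dpc side alone and 4174 through the 2 dpn side alone, which had to differ to be kept, so that these calls are a description. Of the 19625 tags that reached 10 copies on both sides, 73 were called higher and 24 lower. The 276 tags included 69 of the 71 called higher without this minimum, and the 359 included all 52 called lower. Together the 276 tags rose from 0.229% of the counts in LR and 0.227% in LT to 2.56% and 3.32%. The 95% Wilson intervals, for counting error only, were at most 0.0175 percentage points on either side. The choice of the tags itself moved these shares, and 203 of the 276 had been kept through the 2 dpn side alone.

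In each breed by itself, the 2 libraries were compared with an exact binomial test per tag, which compares 2 libraries and not 2 stages. LR gave 18751 calls of 289326 tags (6.48%) and LT 28235 of 291056 (9.7%). In both breeds 4707 tags were called in the same direction, 1783 higher and 2924 lower at 2 dpn, which was 3.18% of the 148194 tags found in both breeds. The shared calls made up 25.1% of the calls of LR and 16.7% of those of LT. A further 2211 tags were called in opposite directions in the breeds, so that 32.0% of the 6918 tags called in both breeds went opposite ways. For tags with 10 or more copies in both libraries of a side, 6338 of 38253 (16.6%) were called alike, 2114 higher and 4224 lower, and 2664 oppositely. Of the 19625 that reached 10 copies on both sides, 1255 were higher and 1413 lower in both breeds, and 1591 were called oppositely. With TMM scaling 2670 were higher and 1676 lower in both breeds, so that the direction in which more tags moved depended on the scaling. With a coefficient of biological variation assumed to be 0.4, edgeR's exact test shared 23 tags between the breeds in each direction.

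The tags that were higher in both breeds by the 2-library test made up 9.04% of all counts in LR and 7.32% in LT at 91 dpc. At 2 dpn they made up 25.5 and 26.6%, with 95% Wilson intervals of at most 0.0634 percentage points on either side, for counting error only. The tags lower in both breeds took 17.5 and 14.2% of the counts before birth and 3.97 and 3.55% after it. These shares were moved by the choice of the tags itself. The number of tags that held 50% of a library's counts, which the choice did not use, was 1825 in LR and 4117 in LT at 91 dpc, and 1376 and 936 at 2 dpn. The 10 most abundant tags held 5.93 and 4.50% of the counts at 91 dpc and 8.03 and 7.95% at 2 dpn. With 2 libraries a side, a difference of these values between the stages could not pass an exact permutation test. Its smallest 2-sided p is 0.333 without pairing by breed, and higher with it.

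Over the 38253 tags the log2 ratios of LR and LT, taken on TPM + 1, had a Pearson's r of 0.32 and the same sign in 61.3%. For the 2108 of these tags with a mean of 50 TPM or more, r was 0.41, and for the 186 with 500 TPM or more it was 0.55, as a description across tags within 4 libraries. A change of more than 2-fold was in the same direction in both breeds for 1714 tags that were higher and 4794 that were lower, and in opposite directions for 1621. The minimum of 10 copies favours a shared direction, since a tag kept through 1 side was high there in both breeds. Over the 45180 tags tested by edgeR, r was 0.21, the sign was the same in 53.2%, and 1813 tags were more than 2-fold higher in both breeds, 4528 lower and 2906 opposite. At the higher levels of 50 and 500 TPM the sign was the same in 57.7 and 58.1%. Called tags lay at the ends of this cloud, with log2 ratios of 1.83 to 7.02 in LR and 1.80 to 7.33 in LT for those called higher. Those called lower lay at -6.39 to -1.75 in LR and -5.76 to -2.60 in LT.

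**Figure D2:**
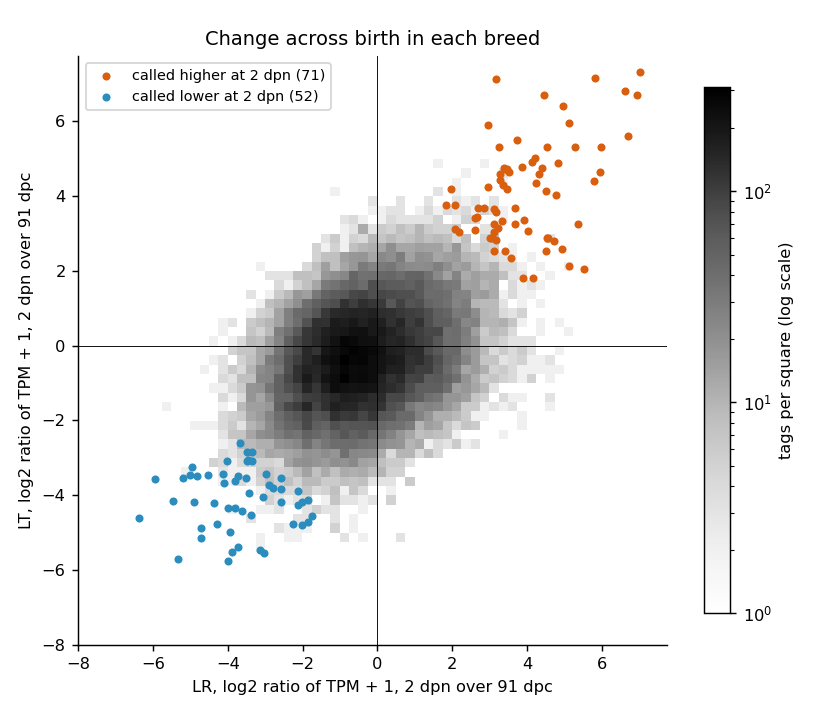
Log2 ratio of TPM + 1, 2 dpn over 91 dpc, in LR (horizontal axis) and in LT (vertical axis). Grey squares count the 38253 tags with 10 or more copies in both libraries of a side (log scale), and coloured points are the 71 tags called higher and the 52 called lower by edgeR, which lie in the upper right and the lower left.

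The 9 most abundant tags changed less than the called ones, which had been chosen for their change. Of the 9, 0 passed the edgeR test, which says little, since only 0.272% of all tested tags did. In edgeR 5 had an unadjusted p below 0.05, as had 3595 of the 45180 tested tags. DESeq2 called 2 of the 9 (M1 and M8), and 491 of 11895 tags in all. They were the 5 tags of the highest mean TPM at each stage, 1 of which was shared, and capitals mark CATG and, in M9, the polyadenylation signal AATAAA.
M1: CATGaaatgtgacattgatat
M2: CATGtgcccctcctcgccagg
M3: CATGagcaaaaattcactttg
M4: CATGgcctttaaggacaccgg
M5: CATGaccaaaaaccaaaagtg
M6: CATGaagatcaagatcatcgc
M7: CATGcccattgtacttgaact
M8: CATGaagtgcgacatcgatat
M9: CATGtaccatcAATAAAgtac
M2 was the most even of them, at 5711 (LR) and 7122 TPM (LT) at 91 dpc and 5760 and 7130 TPM at 2 dpn, and passed no test. M1 was the most abundant tag of 91 dpc by the mean of the breeds, with 9935 TPM in LR and 3889 TPM in LT, and stood at 1274 and 878 TPM at 2 dpn. It was 7.80-fold lower in LR and 4.43-fold lower in LT by the 2-library test, and its edgeR adjusted p was 0.303. M5 followed the same course, from 5761 and 3715 TPM to 1043 and 892 TPM (adjusted p = 0.443). M4 was the exception among the tags of 91 dpc, with 6902 against 1924 TPM in LR and 2962 against 3671 TPM in LT, where it did not pass the 2-library test. At 2 dpn the most abundant tag was M3, at 11817 (LR) and 9714 TPM (LT), after 4536 and 6474 TPM at 91 dpc. M6 stood at 9219 and 11330 TPM at 2 dpn, but the breeds had differed before birth, with 6343 TPM in LR and 1677 TPM in LT. M7 showed the same difference, 4357 TPM in LR and 1586 TPM in LT at 91 dpc, then 9405 and 9984 TPM. M8 rose by the 2-library test in both breeds, from 2298 and 1947 TPM to 7748 and 9749 TPM (edgeR adjusted p = 0.268). M9, which ends 4 bases past the signal, went from 3904 and 4632 TPM to 8697 and 7709 TPM. AATAAA was searched in the 17 bases on the sequenced strand and was found in 1 of the 71 tags called higher, 1 of the 52 called lower and 1.69% of the 45180 tags tested.

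Levels at stages that the comparison did not use were read next. Those from 28 dpn on are of castrated boars, so that age and castration go together there, and the part of castration was not tested. Of the 71 tags called higher, 55 (77.5%) were higher at 28 dpn than at 77 dpc in both breeds, against 14.2% of all tested tags. The median log2 ratio of these stages was 2.45 in LR and 2.11 in LT for the 71 tags, and -0.55 and -0.72 for all tested tags. Of the 52 tags called lower, 50 (96.2%) were lower at 28 dpn than at 77 dpc in both breeds, against 49.2% of all tested tags. Their median log2 ratio was -4.21 in LR and -4.03 in LT. Between 63 dpc and 90 dpn the picture differed by direction. There 25 of the 71 tags (35.2%) were higher at the later stage in both breeds, against 14.7% of all tested tags, and 50 of the 52 were again lower, against 59.8%.

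By the mean of the breeds, 59 of the 71 tags had their highest level of the 10 stages at 2 dpn, 6 at 28 dpn, 4 at 120 dpn, and 1 each at 63 dpc and 90 dpn. Of all tested tags, 15.1% had their highest level at 2 dpn. Without LR at 120 and 180 dpn the 2 dpn count was 60 of the 71 and 14.6% of all tested tags. The high level at 2 dpn had chosen the 71, so that this count describes them and tests nothing. R2 was at 461 (LR) and 961 TPM (LT) at 2 dpn and at 0 in LR at 120 and 180 dpn and between 28.6 and 120 TPM in the other 6 libraries from 28 to 180 dpn. R6 was at 233 and 700 TPM at 2 dpn and at most at 70.2 TPM later. R5 kept a level near that of 2 dpn in LT, with 459, 312, 309 and 435 TPM at 28, 90, 120 and 180 dpn, after 529 TPM at 2 dpn. In LR the same tag had 250 and 506 TPM at 28 and 90 dpn but 2.62 and 1.93 TPM at 120 and 180 dpn, in the libraries that stood apart. Among the postnatal libraries M8 too was low in these last 2 of LR, at 86.0 and 59.7 TPM, against 17575 and 16091 TPM in LT. R1 was the reverse, and its highest level of all libraries was 3408 TPM in LR at 120 dpn, and without these 2 libraries it was the 1067 TPM of LT at 2 dpn. The 52 tags called lower spread their highest level over the prenatal stages, with 9, 11, 13, 10 and 8 tags at 35, 49, 63, 77 and 91 dpc and 1 at 180 dpn, or at 120 dpn without those 2 libraries. F1 ran from 262 to 735 TPM in the 8 libraries of 35 to 77 dpc, and F10 from 204 to 503 TPM, and the latter stood at 39.2 (LR) and 50.7 TPM (LT) at 91 dpc.

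**Figure D3:**
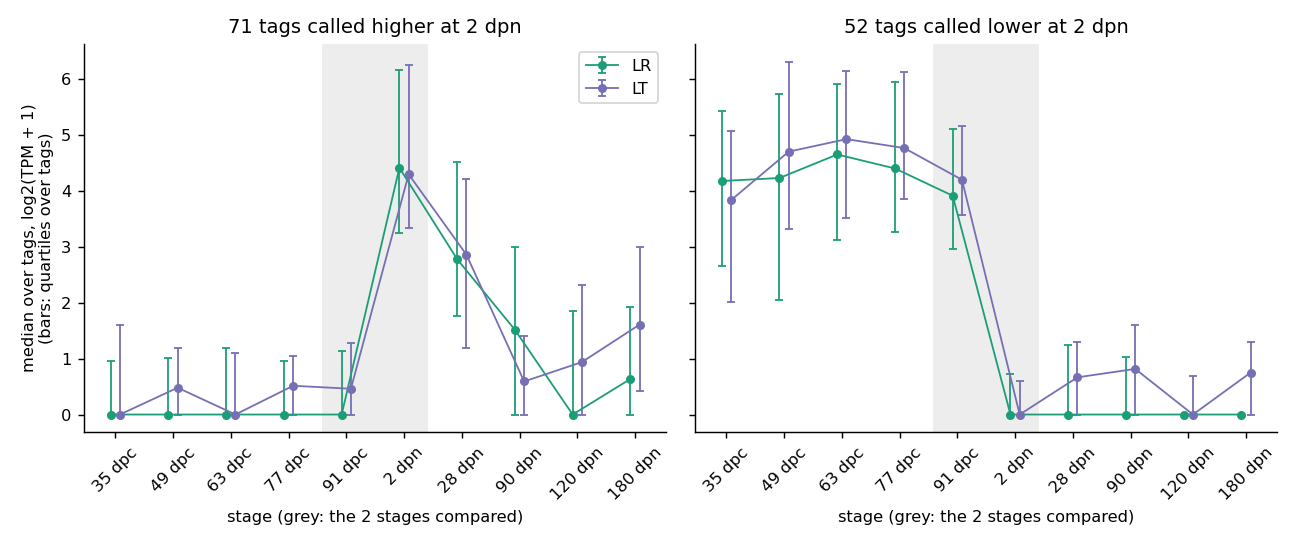
Median level, as log2(TPM + 1), of the 71 tags called higher (left) and the 52 called lower (right) at each of the 10 stages, with LR in green, LT in purple and bars from the lower to the upper quartile over tags. The grey band marks the 2 stages that chose the tags, and the medians of the 71 tags are lower at 28 dpn than at 2 dpn in both breeds.

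**Figure D4:**
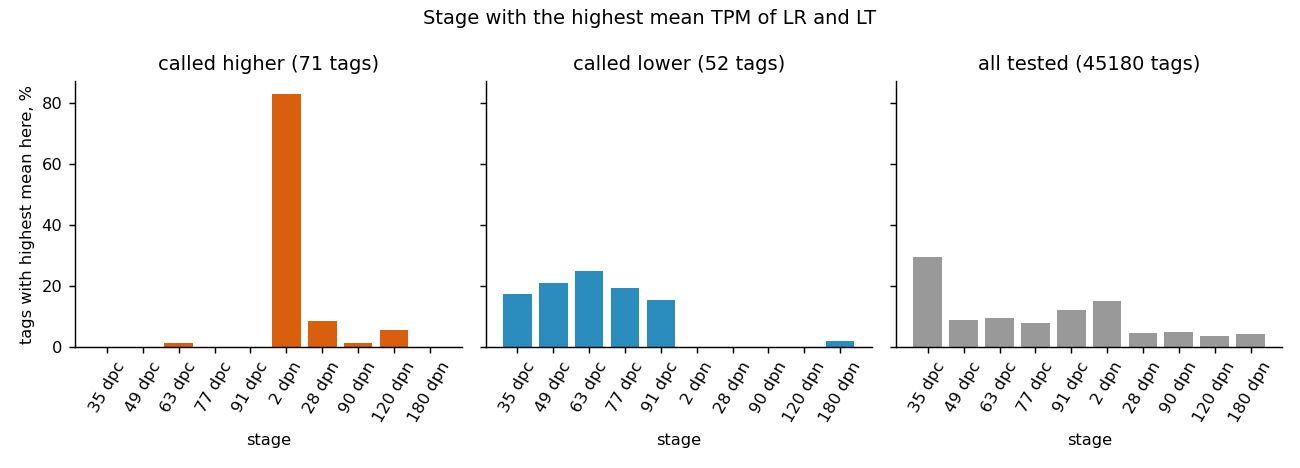
Share of tags, in %, whose mean TPM of LR and LT was highest at each stage, for tags called higher, tags called lower and all 45180 tested tags. The first panel has 83.1% of its 71 tags at 2 dpn, and the second spreads its 52 tags over 35 to 91 dpc.

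Absence on 1 side was then taken without any scaling. Tags with 0 copies in both 91 dpc libraries numbered 61 of the 23799 with 10 or more copies in both 2 dpn libraries. Those with the opposite pattern numbered 476 of the 34079 with 10 or more in both 91 dpc libraries. The libraries of 91 dpc held more counts than those of 2 dpn of the same breed, and the part of depth in the larger number of lost tags was not tested. By the chosen floor of detection, a count of 0 was taken as up to 0.712 (LR) and 0.564 TPM (LT) at 91 dpc. At 2 dpn it was taken as up to 0.963 and 0.679 TPM. Since one-copy tags had been removed, a listed 0 can stand for 1 copy, so that these limits are approximate and somewhat low. Copies on the side of presence were few, with medians of 16 (LR) and 18 (LT) for gained and of 14 and 16 for lost tags. At 50 or more copies, 1 gained and 6 lost tags remained. All 476 lost tags were found in at least 1 of the 8 libraries of 35 to 77 dpc, 453 of them in both breeds at 77 dpc, and 123 were found in none of the 8 libraries of 28 to 180 dpn, or 134 in none of the 6 without LR at 120 and 180 dpn. Of the 61 gained tags, 60 were found in at least 1 library of 28 to 180 dpn, with or without those 2. Of the same 61, 41 were found in both breeds at 28 dpn, and 25 in none of the libraries of 35 to 77 dpc. The shares of all tags of 10 or more copies found at these stages were not taken, so that these counts are a description.

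Several abundant tags that differed from each other at a few bases moved in opposite directions across birth by the 2-library test. Over the 2151 tags with a mean of 50 TPM or more, 368 pairs differed at 2 to 4 bases. In 33 of these pairs the differing positions were all a multiple of 3 bases apart, the spacing of codons in coding sequence. This property was examined after the values of the first pair had been seen. The 6 pairs with the highest level of their rarer tag are shown so that the differing bases can be seen. Whether the tags of a pair come from related genes was not tested.
Pair 1, first: CATGaaatgtgacattgatat
Pair 1, second: CATGaagtgcgacatcgatat
Pair 2, first: CATGaagatcaagatcatcgc
Pair 2, second: CATGaagatcaagattattgc
Pair 3, first: CATGcaaaaggaaatcactgc
Pair 3, second: CATGcagaaggagatcaccgc
Pair 4, first: CATGagagaagagtaaaggaa
Pair 4, second: CATGagaggagagtgaaggaa
Pair 5, first: CATGtacccaggtattgctga
Pair 5, second: CATGtacccgggcatcgctga
Pair 6, first: CATGaaacgacttacaacagc
Pair 6, second: CATGagactacctacaacagc
The differences, from the first to the second tag of a pair and counted from 1 at the C of CATG, were A7G, T10C and T16C in pair 1, which is M1 and M8. They were C16T and C19T in pair 2, A7G, A13G and T19C in pair 3, A9G and A15G in pair 4, and A10G, T13C and T16C in pair 5. Pair 6 differed by A6G, G9T and T12C.

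In all 6 pairs 1 tag was higher and the other lower at 2 dpn in both breeds by the 2-library test, while 0 of the 12 tags passed the paired edgeR test. All 12 had an unadjusted p below 0.05 in edgeR, as had 3595 of the 45180 tested tags. DESeq2 called 8 of the 12, and 491 of 11895 tags in all. The pairs were picked after values of these libraries had been seen, so that these counts are a description. The first tag of pair 1 made up 81.2% (LR) and 66.6% (LT) of the pair's TPM at 91 dpc and 14.1 and 8.26% at 2 dpn. In pair 2, whose first tag is M6, the second tag went from 5246 and 1454 TPM to 664 and 267 TPM. The first tag took 54.7 and 53.6% of that pair before birth and 93.3 and 97.7% after it, with the breeds close to each other. Pair 4 turned from 1084 (LR) and 1110 TPM (LT) of its first tag and 88.1 and 125 TPM of its second to 95 and 95.3 TPM of the first and 1342 and 335 TPM of the second. In pairs 3, 5 and 6 the first tag took 28.4 to 73.0% of the pair at 91 dpc and 1.56 to 10.3% at 2 dpn. In the 8 libraries of 28 to 180 dpn, the tag that was lower after birth was the rarer of its pair in every library, those of LR at 120 and 180 dpn or not, for each of the 6 pairs. In the 8 libraries of 35 to 77 dpc it was the more abundant in all 8 for pairs 1, 2, 4 and 5, in 7 for pair 6 and in 6 for pair 3. Of the 33 pairs with this spacing, 10 were called in opposite directions in both breeds, and of the other 335 pairs 7 were, with no test of this difference.

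**Figure D5:**
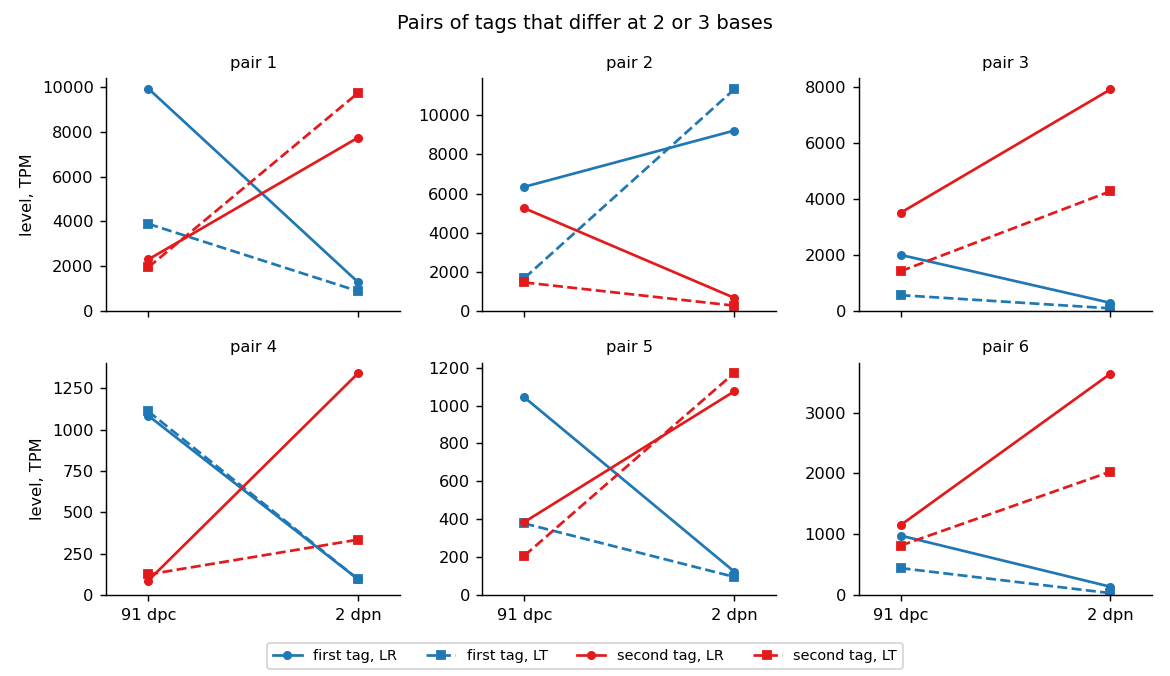
Levels in TPM at 91 dpc and 2 dpn of the 6 pairs of near-identical tags, with the first tag of a pair in blue, the second in red, LR as circles with full lines and LT as squares with dashed lines. Within each panel the lines of the 2 tags go in opposite directions in both breeds, and the vertical scales differ between panels.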

How the data were processed

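Longissimus muscle RNA of 3 animals was pooled per breed and stage, and 1 library was made per pool. The authors digested bead-bound cDNA with NlaIII, sequenced 17 bases after CATG, and removed adaptor, empty, low-quality and one-copy tags. The authors deposited, per library, raw counts of the distinct clean tags and, beside them, the same values as TPM. Bowtie 0.12.3 is named in the submitters' processing notes, without its role. Levels were recomputed as count over library total times 1000000, an absent tag being 0, and equalled the deposited TPM within rounding. Counts were tested, and TPM served for levels.

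Libraries were grouped by their labelled breed and stage. For 2 dpn against 91 dpc, the quasi-likelihood test of edgeR was run in a model of breed (the block) and stage, after TMM normalization and filterByExpr, and p-values were adjusted by Benjamini-Hochberg. Same-breed pools do not come from the same animals, and the deviations of LR from the stage means at the 2 stages correlated at r = -0.08 over 38253 tags, so that the block rests on the breed label. Within a breed, an exact binomial test (2-sided) compared the counts of a tag in 2 libraries given both totals, a call needing a p below 0.009, an FDR below 0.02 and a log2 TPM ratio beyond 0.5 in either direction, where 0.01 TPM replaced 0. Ratios outside the fits used TPM + 1. The SE given with a fitted log2 ratio is its absolute value divided by the square root of the F statistic of the edgeR test. It was not estimated apart from that test. Both tests were tested on simulated data. For edgeR the simulated spread was below that fitted to the 4 libraries, and for the binomial test it was counting error alone. Those runs therefore do not show how the tests behave at the spread of these libraries. Wilson intervals and the floor of 3 counts cover counting error only, since PCR copies are not independent molecules.

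Named tags were the 10 most abundant called in each direction, the 5 with the largest fitted change in each direction among tags of 10 or more copies in both libraries of the higher side, the 5 most abundant at each stage and the 3 most abundant called in opposite directions in the breeds. The members and lists were chosen with earlier results of these data known. Reference transcripts were not used here, so that results by gene, gene lists and marker genes were not analysed here. The fits used edgeR 4.0.16 and DESeq2 1.42.0 under R 4.3.3. The other steps used scipy 1.17.1, numpy 2.4.6 and pandas 2.3.3 under Python 3.11.15.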

Additional observations from a re-analysis of the deposited data

Results flagged for a closer look

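Tags called by the 2-library test in opposite directions in LR and LT numbered 2211, of which 1043 were higher at 2 dpn in LR and lower in LT, and 1168 the reverse. The difference between the breeds was not tested for any of them, since each breed has 1 library a stage. The 3 most abundant are shown.
O1: CATGaaggatgaggaaaagat
O2: CATGtctatctaaatagagct
O3: CATGttcgatcagactcagat
O1 was 1.81-fold lower at 2 dpn in LR (5184 to 2867 TPM) and 2.81-fold higher in LT (1966 to 5531 TPM), and its log2 ratio was greater in LT by 2.35. O2 rose 2.92-fold in LR (1819 to 5316 TPM) and was 2.52-fold lower in LT (3449 to 1366 TPM), a difference of LT minus LR of -2.88. O3 took the same course as O2, with 1627 to 4084 TPM in LR, 3702 to 2072 TPM in LT and a difference of -2.16. At 28 dpn the breeds were nearer to each other for O2, with 4565 (LR) and 4020 TPM (LT), and for O3, with 2531 and 1905 TPM.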

How the results depend on the processing

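Beside the 123 calls of the paired edgeR test (71 higher, 52 lower), the fit with no replicate block gave 0, as did 20 libraries in one fit (5611 at an unadjusted p below 0.05) and 16 libraries (8901). DESeq2 gave 491 (296 higher, 195 lower), no low-count filter 48 (35 and 13), the minimum of 10 copies 635 (276 and 359) and tags 1 base apart merged 216 (106 and 110). Total clean tags as scaling gave 153, with 94 lower. Leaving out 1 library, in a fit of stage alone to be set against the 0 calls with no block, gave 0 to 349 calls, 0 to 307 higher and 0 to 92 lower, the lone library of a stage being assumed to vary like the others. Fits of 19 libraries, chosen after seeing the data, gave 1 call (lower) without LR 91 dpc (3676 at an unadjusted p below 0.05), 3 (higher) without LR 2 dpn (4932), and 0 without LT 91 dpc (3895) and LT 2 dpn (5275). The cause was not tested. Of the 29 called named tags, R11 alone reversed in these alternatives, at -0.91 when merged. All 29 kept their calls under the 10-copy minimum and total-tag scaling, 19 under DESeq2 and 15 without the filter.

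The 2-library counts of LR and LT became 507 and 939 under the assumed coefficient of variation, with 23 shared higher and 23 shared lower. LT gave 18101 calls at 10 copies and 17125 with the 4 libraries thinned to 3116426 tags, the latter chosen after seeing the data, and TMM left 1676 shared lower tags. At 50 copies, 1 tag was gained and 6 were lost. At 63 dpc and 90 dpn, 25 of the tags called higher kept their direction in both breeds. Results by gene were not run. The depth limits tags listed at 0 to an upper bound near 1 TPM.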

Other observations

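Apart from the comparison, the called tags were set beside all tested tags by their bases. A further CATG within the 17 bases was found in 0 of the 71 tags called higher, 2 of the 52 called lower and 3.42% of the 45180 tested. A run of 6 A at the end of the tag was found in 1 of the 71, 0 of the 52 and 0.710% of the tested tags. The median GC content of the 17 bases was 47.1% for both called groups and 41.2% for all tested tags. It was also 41.2% for the 359 tags called lower under the 10-copy minimum and the 2924 lower in both breeds by the 2-library test. The 276 and the 1783 tags that were higher in these 2 ways stood at 47.1%. Over the counts of a library, mean GC was 42.2 (LR) and 44.5% (LT) at 91 dpc and 43.4 and 43.8% at 2 dpn. Tags found in only 1 of the 4 libraries made up 24.7 (LR) and 40.3% (LT) of the distinct tags at 91 dpc, and 44.5 and 17.0% at 2 dpn, so that the breed with the larger share differed between the stages. They carried 2.81 and 6.29% of the counts at 91 dpc and 7.38 and 1.59% at 2 dpn.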
